A study of Mus musculus with 8 samples.

Results

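The mitochondrial genome of the mouse encodes 37 genes, and all 37 of them were present among the 52550 genes of the count table. They were chosen by their mt- symbols alone, with no filter on level, and comprise 13 mRNAs, 2 rRNAs and 22 tRNAs. On the reference sequence, 28 of them lie on the plus strand and 9 on the minus strand, and the minus-strand genes are *mt-Nd6* and 8 tRNAs. The values come from RNA immunoprecipitation followed by sequencing (RIP-seq), in which an anti-Flag antibody pulls down a tagged protein with its RNA, and this RNA is sequenced beside that of the input lysate.

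Mitochondrial DNA is transcribed from both strands into long precursors that span many genes. The tRNAs punctuate these precursors, and their excision releases the mRNAs and rRNAs between them. The mRNAs encode core subunits of the respiratory chain and of ATP synthase, they have no cap, and mitochondrial ribosomes translate them inside the organelle. eIF4A2, in contrast, is an RNA helicase that acts with the cap-binding complex in the initiation of translation by cytosolic ribosomes. Most mitochondrial mRNAs carry a short poly(A) tail, which in some of them completes the stop codon, whereas in mammals *mt-Nd6* is known as the mRNA that lacks such a tail.

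All libraries came from mouse embryonic stem cells (ESCs) in which *Eif4a2* had been knocked out, cultured in ES-DMEM-2i medium. The cells carried either the empty vector (EV), and so no Flag-tagged protein, or a Flag-tagged *Eif4a2* (Eif4a2flag). The groups were input EV, input Eif4a2flag, RIP EV and RIP Eif4a2flag, with 2 libraries in each. According to the study's methods the Flag construct was introduced by transposition and its lines are clones. Separate cultures or clones are not stated for the EV libraries, so the spread behind p-values that involve them may be technical. In a field of the labels, replicate 2 of RIP Eif4a2flag is named after *Eif4a3*, whereas its other fields name *Eif4a2*. All 8 pluripotency genes listed for the check of the cell type, among them *Sox2*, *Nanog* and *Esrrb*, reached 1 CPM (counts scaled to a total of 1000000 gene reads) in all 4 inputs. Their summed level in the inputs lay between 3321 and 4274 CPM, and in the RIP libraries between 1526 and 3892 CPM. The lowest of these genes in every input was *Pou5f1*, at 5.78 to 19.7 CPM, and it was at 0 in both RIP EV libraries. The highest in the inputs was *Tdh*, at 1542 to 2306 CPM. Of 5 fibroblast markers 0 reached 1 CPM in all inputs, and their summed level was at most 6.87 CPM in any library. The most abundant of them was *Thy1*, and *Col3a1* and *Postn* had 0 counts in every library. Of 4 endoderm markers 0 passed, with *Sox17* at 0 in the inputs and the sum at most 2.32 CPM. Of 3 mesoderm markers 1 passed, namely *Eomes*, with the sum at most 20.9 CPM, and of 3 neural markers 2 passed, *Sox1* and *Nes*, with the sum at most 26.5 CPM and *Pax6* highest in a single library, at 17.9 CPM in replicate 2 of RIP EV. The part of such cells in the mitochondrial values was not tested.

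The libraries were made with the QuantSeq 3′ kit, which primes on poly(A) and reads a tag near the 3′ end, so that a level counts tags and not the length of an RNA. Reads on genes came to 7269765 and 3204369 in input EV, 4620862 and 6225787 in input Eif4a2flag, 2044853 and 3345151 in RIP EV, and 11206420 and 9976801 in RIP Eif4a2flag. A gene with 0 counts in a library is compatible with a level of up to 3 counts, which is 0.268 CPM in the deepest library and 1.47 CPM in the shallowest.

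The 3′ ends are shown first, since the tags come from them and reads that also align elsewhere were not counted. Below are the last 50 bases of 4 mRNAs with 0 counts in every library and of 5 mRNAs that were counted, in DNA letters as in the RefSeq sequence of GRCm38 (the assembly called mm10), 5′ to 3′ on the strand of the gene. Capitals mark the stop codon, or the single T of an incomplete one that the poly(A) tail completes.
mt-Co2 (chrM:7647-7696, plus, 0 counts): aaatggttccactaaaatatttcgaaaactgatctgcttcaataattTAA
mt-Atp6 (chrM:8558-8607, plus, 0 counts): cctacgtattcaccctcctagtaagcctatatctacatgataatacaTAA
mt-Co3 (chrM:9341-9390, plus, 0 counts): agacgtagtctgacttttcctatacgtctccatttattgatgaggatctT
mt-Nd4l (chrM:10124-10173, plus, 0 counts): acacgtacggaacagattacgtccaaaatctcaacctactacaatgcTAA
mt-Nd1 (chrM:3658-3707, plus, counted): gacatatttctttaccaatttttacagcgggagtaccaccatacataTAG
mt-Nd4 (chrM:11495-11544, plus, counted): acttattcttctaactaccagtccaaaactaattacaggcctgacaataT
mt-Cytb (chrM:15239-15288, plus, counted): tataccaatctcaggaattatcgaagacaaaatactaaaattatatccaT
mt-Nd6 (chrM:13552-13601, minus, counted): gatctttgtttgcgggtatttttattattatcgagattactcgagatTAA
mt-Co1 (chrM:6823-6872, plus, counted): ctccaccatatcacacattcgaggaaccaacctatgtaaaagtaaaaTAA

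Each of the first 4 ends, and every 50-base window inside those 4 genes, occurs again letter for letter in the nuclear genome, and none of the windows in the last 300 bases of *mt-Nd1*, *mt-Nd4*, *mt-Cytb* and *mt-Nd6* does. Of the ends shown, that of *mt-Co1* is an exception, since the gene was counted although all windows in its last 300 bases are copied. The reads were 50 bases long and the counting left out reads that aligned to more than 1 place. Over the whole mitochondrial genome of 16299 bases, 5818 of 16250 windows of 50 bases (35.8%) had an exact copy among the 21 nuclear chromosomes searched. The longest copy lies on the minus strand of chromosome 1, at chr1:24611535-24616184 in GRCm38. It matches mitochondrial positions 6394 to 11042, from the 3′ part of *mt-Co1* into *mt-Nd4*, at 99.957% identity and with 2 differences. A second stretch, at chr2:22587288-22590534, shares 1121 windows with mitochondrial positions 4441 to 7699.

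Of the 37 genes, 14 had 0 counts in all 8 libraries, and in 12 of these 14 every window had a nuclear copy. The 5 mRNAs among them were *mt-Co2* and *mt-Co3*, which encode subunits of cytochrome c oxidase, *mt-Atp8* and *mt-Atp6*, which are read from 1 mRNA and encode subunits of ATP synthase, and *mt-Nd4l*, which is read from 1 mRNA with *mt-Nd4* and encodes a subunit of complex I. The 9 tRNAs among them were *mt-Tn*, *mt-Tc*, *mt-Ty*, *mt-Ts1*, *mt-Td*, *mt-Tk*, *mt-Tg*, *mt-Tr* and *mt-Th*, and the genes of the 14 that were only partly copied were *mt-Tc* (23.5% of windows) and *mt-Tr* (31.6%). In the opposite direction, 14 genes with counts had no copied window and 2 with counts were fully copied, *mt-Te* with 12 counts and *mt-Tw* with 1 count over the 8 libraries. A count of 0 for a fully copied gene sets no limit on its RNA, since reads that align to more than 1 place were left out. Whether the copies account for the counts of 0 was not tested. In the pair that shares an mRNA, *mt-Nd4l*, with 100% of its windows copied, had 0 counts. *mt-Nd4*, with copies in its 5′ part (62.2% of all windows, 0% of those in the last 300 bases), had 95881 counts. Tags near the 3′ end of this shared mRNA fall on *mt-Nd4*, so the pair cannot tell the copies from the place of the tags. *mt-Co1*, which encodes another subunit of cytochrome c oxidase, had 5667 counts, with 100% of the windows in its last 300 bases copied.

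**Figure D1:**
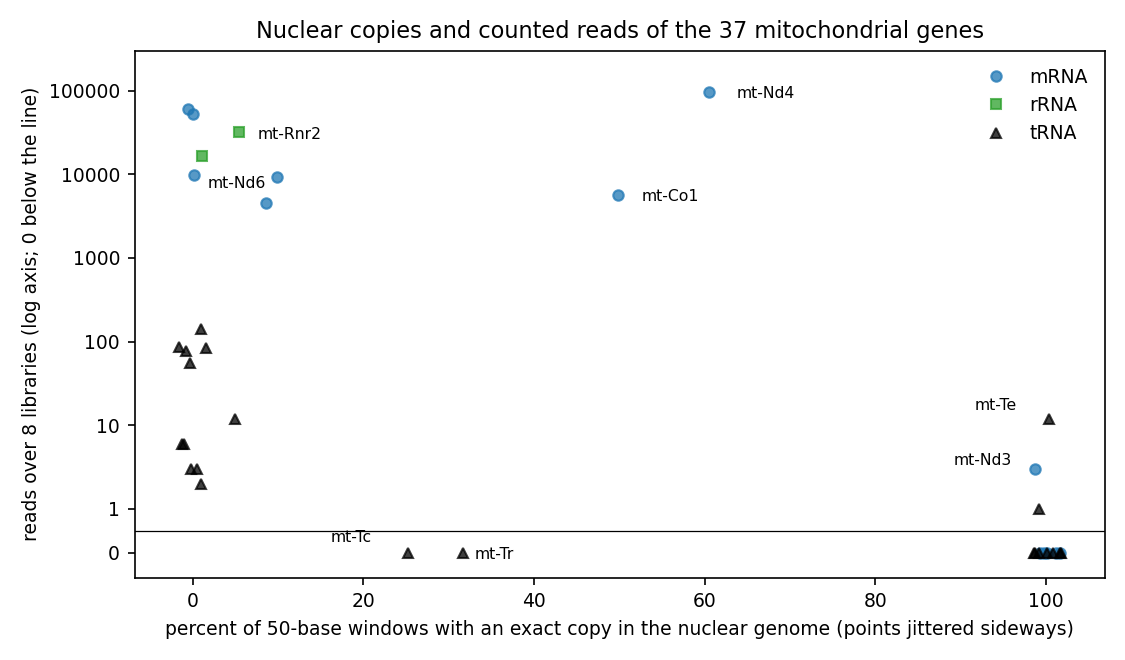
Percent of the 50-base windows of each of the 37 mitochondrial genes with an exact copy in the nuclear genome (horizontal axis) against its reads summed over the 8 libraries (vertical axis, logarithmic, with 0 below the line), by RNA class. The genes at 100% lie at 0 reads or close to it, mt-Tc and mt-Tr are at 0 with part of their windows copied, and mt-Nd4 and mt-Co1 carry 95881 and 5667 reads with 62.2% and 51.1% of windows copied.

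*mt-Nd3*, which encodes a further subunit of complex I, differs from its copy on chromosome 1 at a single base. Its first 30 bases and those of the copy are shown because this base, in capitals, is the difference between the reference sequences of the RNA and of the copy.
mt-Nd3 (chrM:9459-9488, plus): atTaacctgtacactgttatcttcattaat
chromosome 1 copy (chr1:24613090-24613119, minus): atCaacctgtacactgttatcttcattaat
The differing base is mitochondrial position 9461. The base that the mitochondrial DNA of these cells carries there is not given in the sources used here, so a read counted on the copy can be *mt-Nd3* RNA if the cells differ from the reference. Only 3 counts fell on *mt-Nd3*, all in replicate 2 of input Eif4a2flag. The nuclear gene annotated over this copy, the pseudogene *Gm28438*, had 109 counts, with 18 and 44 in input EV, 8 and 18 in input Eif4a2flag, 0 and 4 in RIP EV, and 1 and 16 in RIP Eif4a2flag. Of the other 6 pseudogenes annotated in the chromosome 1 copy, *Gm28437* had 9 counts and 5 had 0.

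In all, 12 genes reached 1 CPM in each of the 4 inputs and were tested: 7 mRNAs (*mt-Nd1*, *mt-Nd2*, *mt-Co1*, *mt-Nd4*, *mt-Nd5*, *mt-Nd6* and *mt-Cytb*), both rRNAs (*mt-Rnr1* and *mt-Rnr2*) and 3 tRNAs (*mt-Tq*, *mt-Tm* and *mt-Tp*). A further 11, *mt-Nd3* and 10 tRNAs, had counts but failed this filter. The filter is set on the inputs alone, so a gene with reads only in a RIP could not be tested. By strand, 9 of the 28 plus-strand genes and 3 of the 9 minus-strand genes were tested. Strand matters for *mt-Nd6*, since the other strand of its locus lies within the transcript that carries *mt-Nd5* and *mt-Cytb*. The strand setting of the counting is not given in the sources used here. Of 658 coding genes whose last 300 bases are covered by an exon of the opposite strand, 461 (70.1%) had a mean of at least 1 CPM over the inputs, against 51.8% of 21148 genes that are not covered.

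Levels are given in CPM of gene reads for each library. They are shares of a library, so a lower level in 1 RIP group than in another need not mean that less of the RNA was precipitated. In input EV, *mt-Nd4* and *mt-Nd1*, 2 subunits of complex I, stood at 3517 and 9718 CPM and at 2106 and 4078 CPM, and in input Eif4a2flag at 2614 and 3223 CPM and at 1498 and 1464 CPM. *mt-Cytb*, the mitochondrial subunit of complex III, stood in input EV at 2490 and 5141 CPM, with 1580 and 2471 CPM in input Eif4a2flag. Per kilobase of gene, the order in input EV was *mt-Nd4* at 4802 CPM, *mt-Cytb* at 3335 CPM and *mt-Nd1* at 3231 CPM (means of 2 libraries), and neighbours in this order overlapped between libraries. In input EV, every mitochondrial mRNA and rRNA that was tested was higher in replicate 2 than in replicate 1.

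In RIP Eif4a2flag these abundant RNAs were at low levels. *mt-Nd4* stood at 16.4 and 35.2 CPM there, *mt-Nd1* at 13.8 and 18.9 CPM, and *mt-Cytb* at 11.3 and 13.8 CPM. In RIP EV, where no Flag-tagged protein was present, *mt-Nd4* stood at 1281 and 1158 CPM, *mt-Nd1* at 927 and 1779 CPM, and *mt-Cytb* at 576 and 562 CPM. Each RIP Eif4a2flag library was thus below each RIP EV library and each input for these 3 mRNAs.

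**Figure D2:**
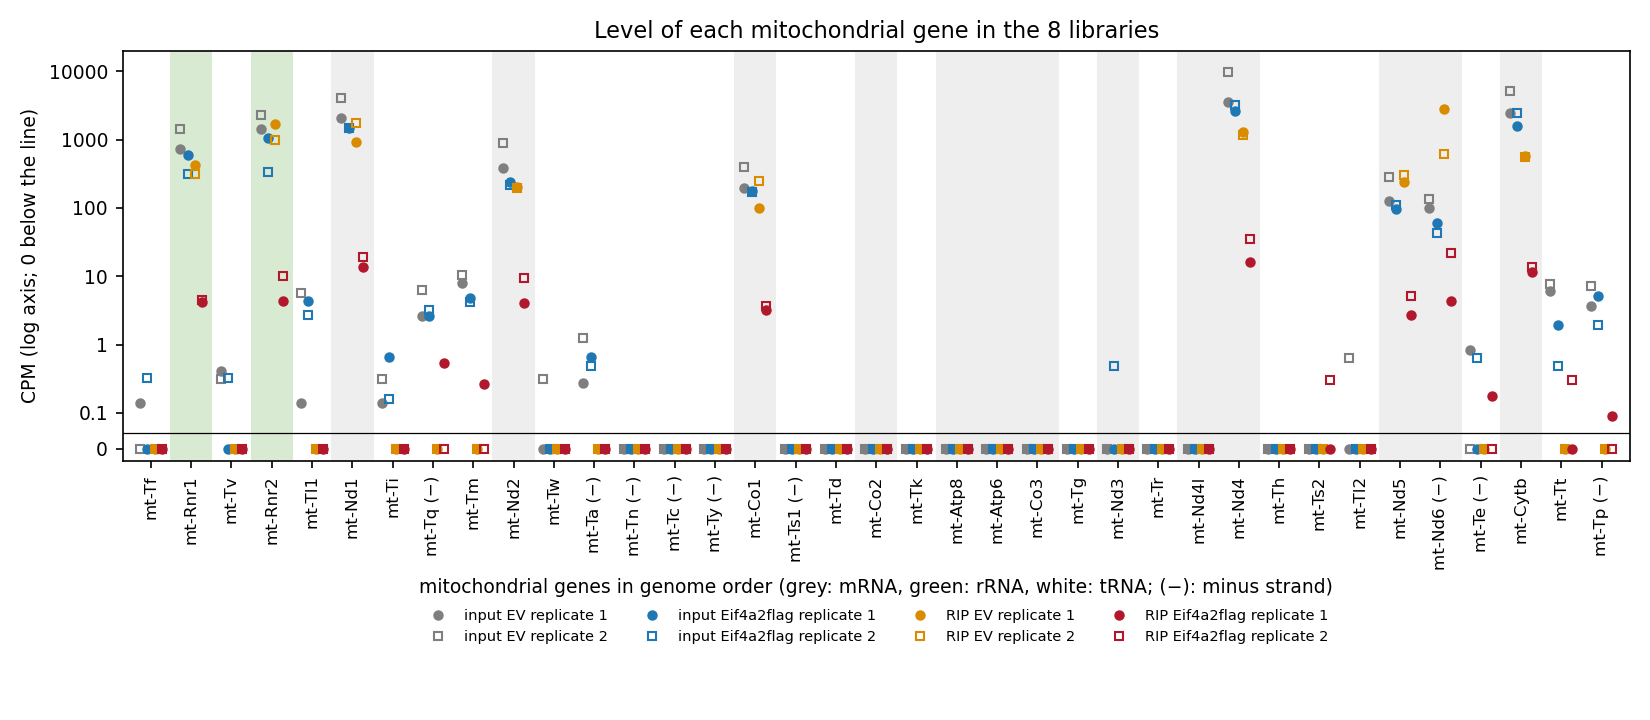
Level in CPM (vertical axis, logarithmic, with 0 below the line) of each of the 37 mitochondrial genes in genome order, with 1 point per library (colour: group, filled or open: replicate 1 or 2). For all 9 tested mRNAs and rRNAs the 2 RIP Eif4a2flag points lie below the other 6, mt-Nd6 is highest in the 2 RIP EV libraries, and the stretch from mt-Ts1 to mt-Nd4l is at 0 but for 1 point of mt-Nd3.

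The less abundant complex I mRNAs were also lowest in RIP Eif4a2flag. *mt-Nd2* stood at 388 and 899 CPM in input EV, 240 and 215 in input Eif4a2flag, 205 and 194 in RIP EV, and 4.02 and 9.42 in RIP Eif4a2flag. For *mt-Nd5* the values were 128 and 285 CPM, 97.2 and 112 CPM, 240 and 300 CPM, and 2.68 and 5.11 CPM in the same order of groups. The RIP EV libraries overlapped the EV inputs for *mt-Nd5*, and for neither gene did the RIP Eif4a2flag libraries reach any other library. *mt-Co1*, of cytochrome c oxidase, stood at 194 and 392 CPM in input EV, 177 and 173 in input Eif4a2flag, 98.8 and 251 in RIP EV, and 3.21 and 3.61 in RIP Eif4a2flag.

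The rRNAs, which form the cores of the mitochondrial ribosome's subunits, were likewise lowest in RIP Eif4a2flag. *mt-Rnr1*, of the small subunit, stood at 733 and 1407 CPM in input EV, 596 and 313 in input Eif4a2flag, 426 and 314 in RIP EV, and 4.19 and 4.41 in RIP Eif4a2flag. *mt-Rnr2*, of the large subunit, stood at 1442 and 2288 CPM, 1049 and 335 CPM, 1707 and 989 CPM, and 4.28 and 10.0 CPM. Both rRNAs were lower in replicate 2 than in replicate 1 of input Eif4a2flag, where *mt-Nd4* and *mt-Cytb* were higher.

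*mt-Nd6*, the only mRNA of the minus strand, was highest in RIP EV. It stood at 98.5 and 136 CPM in input EV, 59.7 and 42.9 in input Eif4a2flag, 2823 and 611 in RIP EV, and 4.28 and 21.7 in RIP Eif4a2flag. Both RIP EV libraries were above every input, and both RIP Eif4a2flag libraries were below every input. Per kilobase of gene, *mt-Nd6* was the highest of the mitochondrial genes in RIP EV (3309 CPM, mean of 2 libraries, against 1414 CPM for *mt-Nd1*, the next, with overlapping libraries), and in input EV, at 226 CPM, it lay below both rRNAs and below all tested mRNAs but *mt-Co1* and *mt-Nd5*. That place depends on the division by length, since in CPM it was below every other tested mRNA in each input EV library. The sequence of *mt-Nd6* is 22.2% A, the lowest share of the 37 genes, with no run of A longer than 3, whereas the other tested mRNAs have runs of up to 8.

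As a whole, mitochondrial genes took 1.11% and 2.44% of gene reads in input EV, 0.793% and 0.836% in input Eif4a2flag, 0.828% and 0.616% in RIP EV, and 0.00653% and 0.0123% in RIP Eif4a2flag. The largest half-width of a 95% Wilson interval of these shares was 0.0169 percentage points, which covers counting error only. The 2 RIP Eif4a2flag libraries were far below the other 6. In group means the summed level of the mitochondrial genes as counted, which leaves out RNA whose reads aligned to more than 1 place, was 94.1 ± 40.6 CPM (SD, n = 2) in RIP Eif4a2flag and 8146 ± 307 CPM (SD, n = 2) in input Eif4a2flag, a ratio of input to RIP of 86.6. The same ratio was 3.96 for *mt-Nd6*, or 12.0 without replicate 2 and 2.37 without replicate 1 of RIP Eif4a2flag. Against RIP EV, at 7221 ± 1503 CPM (SD, n = 2), the ratio of RIP EV to RIP Eif4a2flag was 76.8 for the mitochondrial genes together, 55.0 for the plus-strand mRNAs and 132 for *mt-Nd6*. Of all reads, in place of gene reads, mitochondrial genes took 0.165% and 0.184% in RIP EV and 0.00445% and 0.00836% in RIP Eif4a2flag. In input Eif4a2flag they took 0.327% and 0.388%, so the ratios of 86.6 and 76.8 are smaller on this base. The *mt-Nd6* ratio rested on single libraries. Without replicate 1 of RIP EV it was 47.1, below the 61.7 of the plus-strand mRNAs, and without replicate 2 it was 218. Without replicate 1 of RIP Eif4a2flag it was 79.3, and without replicate 2 it was 401.

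RIP Eif4a2flag was first compared with its input, the comparison that asks which RNAs are recovered with the tagged protein relative to their abundance. All 12 tested mitochondrial genes were lower in both RIP libraries than in both inputs, whereas 18.7% of the 10754 genes tested were separated in this direction. With the quasi-likelihood test of edgeR and Benjamini-Hochberg adjustment over all genes, 4 of the 12 were called lower, against 0.0558% of all genes (6 in number), and 0 of the 12 were called higher, against 0% of all genes. The 4 were *mt-Cytb*, with -7.62 on the log2 scale (standard error 0.494, adjusted p = 0.0232), *mt-Nd4*, *mt-Rnr1* and *mt-Nd1*. For *mt-Nd4* it was -7.11 (standard error 0.682, adjusted p = 0.0484), for *mt-Rnr1* -7.03 (standard error 0.561, adjusted p = 0.0293) and for *mt-Nd1* -6.80 (standard error 0.525, adjusted p = 0.0293). At an unadjusted p under 0.05, 11 of the 12 were lower, against 5.88% of all genes.

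The members that missed the threshold had log2 fold changes between -6.90 (*mt-Rnr2*) and -2.28 (*mt-Nd6*, standard error 0.950, adjusted p = 0.557 by the same test). Without replicate 2 of RIP Eif4a2flag the value of *mt-Nd6* was -3.86 and that of *mt-Tq*, at -2.67, was closer to 0, and without replicate 1 the value of *mt-Nd6* was -1.49. The median over the 12 was -5.97, beside 0.02 over all genes tested, and the median over all genes was 0.32 when libraries were scaled by their size alone. The count of 4 differed between fits. It was 10 with DESeq2 on the 8 libraries (4% of all genes were then called lower), 12 with edgeR on the 4 libraries compared (8.46%), 9 of 23 tested with no filter on low counts (0.36%), 12 without either RIP EV library (7.86% without replicate 1 and 7.23% without replicate 2), 2 with the replicate number as a block (0.0186%), and 0 without any 1 of the other 6 libraries (0%). In each of these fits the log2 fold change of all 12 was below 0.

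RIP Eif4a2flag was next compared with RIP EV, which shares the antibody but has no tagged protein; it shares the RIP Eif4a2flag libraries with the comparison above. All 7 tested mRNAs and both rRNAs were lower in both RIP Eif4a2flag libraries than in both RIP EV libraries, a separation found for 12.1% of all genes, and all 9 were called lower, against 5.46% of all genes, by the quasi-likelihood test of edgeR after Benjamini-Hochberg adjustment. None of the 12 was called higher, against 24.8% of all genes (0 at an unadjusted p under 0.05 and 0 with DESeq2). The largest difference was that of *mt-Rnr2*, at -7.84 on the log2 scale (standard error 0.891, adjusted p = 0.00662), followed by *mt-Nd6* at -7.33 (standard error 1.18, adjusted p = 0.00669), and the smallest was that of *mt-Nd2* at -5.16 (standard error 0.604, adjusted p = 0.00662).

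The remaining 6 had log2 fold changes of -6.70 (*mt-Rnr1*), -6.63 (*mt-Nd1*), -6.38 (*mt-Nd5*), -5.94 (*mt-Co1*), -5.84 (*mt-Nd4*) and -5.78 (*mt-Cytb*), beside a median of 0.64 over all genes tested (0.91 with scaling by library size alone). All 9 calls were lost with edgeR on the 4 libraries compared, where each had an adjusted p of 0.0650 and an unadjusted p under 0.05. With any single library left out, all 9 were called, at adjusted p of at most 0.0292.

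**Figure D3:**
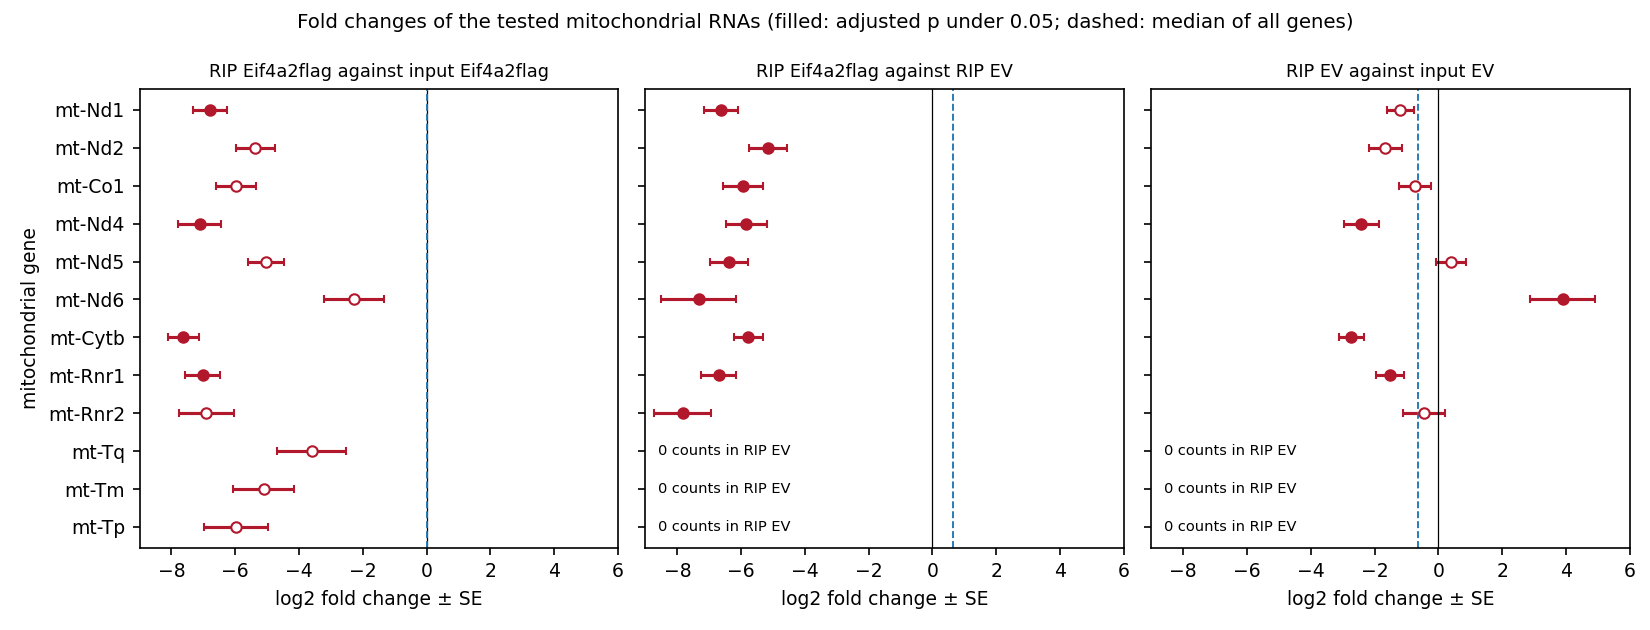
Log2 fold change with its standard error (horizontal axis) of the 12 tested mitochondrial genes in 3 comparisons, from edgeR's fit of 8 libraries, with filled points past an adjusted p of 0.05 and a dashed line at the median of all genes tested. Against input, mt-Nd6 at -2.28 is closest to 0 and mt-Cytb at -7.62 farthest, against RIP EV all mRNAs and rRNAs lie between -7.84 and -5.16, and in RIP EV against its input mt-Nd6 at 3.89 stands apart from the rest. The tRNAs had 0 counts in RIP EV and have no point there.

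RIP EV against input EV describes what the precipitation recovers without a tagged protein. Of the 9 tested mRNAs and rRNAs, 1 was called higher and 3 lower by the quasi-likelihood test of edgeR after Benjamini-Hochberg adjustment, and the 3 tRNAs were called lower. Of all genes, 4.5% were called higher and 26.3% lower. The gene called higher was *mt-Nd6*, at 3.89 on the log2 scale (standard error 1.01, adjusted p = 0.0270). Both RIP EV libraries were above both inputs for *mt-Nd6*, as for 14.6% of all genes, although they differed from each other, at 2823 and 611 CPM. *mt-Cytb* fell by 2.73 on the log2 scale (standard error 0.393, adjusted p = 0.00805), *mt-Nd4* by 2.41 (standard error 0.549, adjusted p = 0.0174) and *mt-Rnr1* by 1.51 (standard error 0.437, adjusted p = 0.0403). Of the 12, 8 were separated downward, as were 44.9% of all genes, and the median over all genes was -0.64.

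The other tested mRNAs and the second rRNA were not called in RIP EV against its input. Their log2 fold changes were -1.67 for *mt-Nd2* (adjusted p = 0.0509), -1.19 for *mt-Nd1* (adjusted p = 0.0736), -0.74 for *mt-Co1*, -0.45 for *mt-Rnr2* and 0.40 for *mt-Nd5*, by the same edgeR test. With edgeR on the 4 libraries compared, no tested mitochondrial gene was called lower in RIP EV. The call of *mt-Nd6* was lost with edgeR on the 4 libraries (adjusted p = 0.0719), with the replicate number as a block (adjusted p = 0.0610) and without any 1 of the 4 inputs, and DESeq2 on 8 libraries kept it (adjusted p = 0.000809). Its log2 fold change stayed between 2.35 and 4.55 with each library left out, at adjusted p of up to 0.168. Without replicate 2 of input EV, 2 genes were called lower.

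The composition of the mitochondrial reads does not depend on the scaling between libraries. The minus strand took 0.953% and 0.618% of mitochondrial reads in input EV, 0.860% and 0.588% in input Eif4a2flag, 34.1% and 9.93% in RIP EV, and 7.79% and 17.6% in RIP Eif4a2flag. All 4 RIP libraries were above all 4 inputs, and the 2 RIP groups overlapped. In RIP EV all minus-strand reads were on *mt-Nd6*. For every 100 reads on plus-strand mRNAs there were 1.12 and 0.663 on *mt-Nd6* in input EV, 0.963 and 0.560 in input Eif4a2flag, 84.8 and 14.4 in RIP EV, and 8.32 and 25.1 in RIP Eif4a2flag. Against *mt-Nd5*, its neighbour on the other strand, the reads on *mt-Nd6* stood at ratios of 0.769 and 0.478 in input EV, 0.615 and 0.384 in input Eif4a2flag, 11.8 and 2.04 in RIP EV, and 1.60 and 4.24 in RIP Eif4a2flag. Uniquely aligned reads that the counting placed on no gene were 45.8% and 29.7% of all reads in RIP EV. They were 13.1% and 17.6% in input EV, 12.3% and 8.58% in input Eif4a2flag, and 3.30% and 4.13% in RIP Eif4a2flag. If the counting was by strand, they include reads within exons but on the other strand. Within each group, the library with more reads on no gene had the higher level of *mt-Nd6* in CPM. As a share of mitochondrial reads, *mt-Nd6* followed the same order in all groups but input EV. RIP Eif4a2flag had the fewest reads on no gene, and its share of *mt-Nd6* was above that of the inputs. The part of these reads in the *mt-Nd6* values was not tested.

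The rRNAs took 19.6% and 15.2% of mitochondrial reads in input EV, 20.7% and 7.75% in input Eif4a2flag, 25.7% and 21.2% in RIP EV, and 13.0% and 11.8% in RIP Eif4a2flag. Both RIP EV libraries were above all inputs, and the RIP Eif4a2flag libraries lay within the range of their inputs. Within the class, reads on *mt-Rnr1* relative to *mt-Rnr2* stood at 0.508 and 0.615 in input EV, 0.568 and 0.934 in input Eif4a2flag, 0.250 and 0.318 in RIP EV, and 0.979 and 0.440 in RIP Eif4a2flag, so that RIP EV was below all other libraries. The RIP Eif4a2flag ratios rest on 47 and 48 reads in replicate 1 and on 44 and 100 reads in replicate 2.

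**Figure D4:**
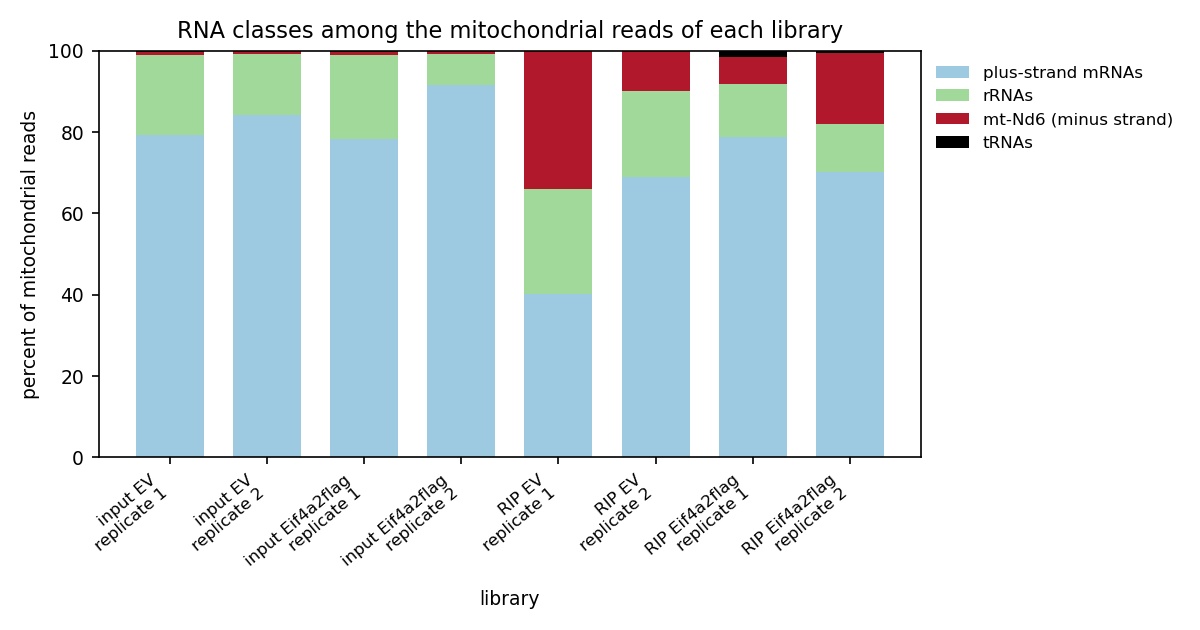
Share of the mitochondrial reads of each of the 8 libraries (bars, vertical axis in percent) on plus-strand mRNAs, rRNAs, mt-Nd6 and tRNAs. mt-Nd6 takes under 1% in all 4 inputs and 34.1% and 9.93% in the RIP EV libraries, and tRNAs are visible only in RIP Eif4a2flag, where they rest on 12 and 6 reads.

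The difference between the cell lines in the change from input to RIP was tested with an interaction term in the same edgeR fit. All 7 tested mRNAs and both rRNAs passed it, with a more negative change in the Eif4a2flag cells, and among all genes 2.1% passed in this direction and 19.2% in the other. The fitted differences lay between -6.45 (*mt-Rnr2*, standard error 1.02, adjusted p = 0.0176 with Benjamini-Hochberg adjustment) and -3.70 (*mt-Nd2*, standard error 0.739, adjusted p = 0.0182), beside a median of 0.64 over all genes. For *mt-Nd6* the difference was -6.17 (standard error 1.38, adjusted p = 0.0234), and between -7.68 and -4.63 with each library left out. All 9 calls were lost when counts were thinned to the smallest library, and without replicate 1 of input EV, without either input Eif4a2flag library or without either RIP Eif4a2flag library, where adjusted p reached 0.0738 for 8 of them and 0.109 for *mt-Nd6*.

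Between the inputs of the Eif4a2flag and the EV cells none of the 12 tested mitochondrial genes passed the threshold. The fitted log2 fold change was below 0 for all 12 tested genes, from -1.46 (*mt-Nd2*) to -0.53 (*mt-Tq*), with a median of -1.01 beside 0.01 over all genes. Without replicate 2 of input EV the median was -0.47, and *mt-Tq* and *mt-Tp* each changed sign with 1 library left out. None of the 12 was called in either direction by the quasi-likelihood test of edgeR after Benjamini-Hochberg adjustment, as for 0% of all genes in each direction, and none by DESeq2. At an unadjusted p under 0.05, 3 of the 12 were lower (*mt-Rnr1*, *mt-Nd1* and *mt-Nd2*), against 0.549% of all genes, and 0 of the 12 were higher, against 0.697%. Of the 12, 10 had both Eif4a2flag inputs below both EV inputs, as had 17.3% of all genes. The summed level of the mitochondrial genes was 8146 ± 307 CPM (SD, n = 2) in input Eif4a2flag and 17751 ± 9379 CPM (SD, n = 2) in input EV, a ratio of 2.18 (1.36 without replicate 2 of input EV), and the difference between these means was smaller than that between the 2 libraries of input EV. In such bulk samples fewer mitochondria-rich cells and less mitochondrial RNA per cell cannot be told apart.

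The tRNAs mature by addition of a CCA end and not of a poly(A) tail, and few of their reads were found in these poly(A)-primed libraries. The 5 tRNAs that reached 10 counts in a library are shown with their sequences. Each has no window with an exact nuclear copy. Reads that also reach a neighbouring gene can be left out as ambiguous, and *mt-Tl1*, for example, borders directly on *mt-Rnr2* and *mt-Nd1*. The part of such reads in the tRNA counts was not tested. Capitals mark the anticodon where the RefSeq annotation gives it.
mt-Tm (tRNA-Met, chrM:3845-3913, plus): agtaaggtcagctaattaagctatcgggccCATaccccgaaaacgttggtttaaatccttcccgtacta
mt-Tt (tRNA-Thr, chrM:15289-15355, plus): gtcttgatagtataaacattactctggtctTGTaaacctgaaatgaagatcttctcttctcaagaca
mt-Tp (tRNA-Pro, chrM:15356-15422, minus): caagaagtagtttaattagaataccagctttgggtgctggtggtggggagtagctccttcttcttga
mt-Tq (tRNA-Gln, chrM:3772-3842, minus): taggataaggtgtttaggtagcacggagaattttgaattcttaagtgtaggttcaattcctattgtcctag
mt-Tl1 (tRNA-Leu, chrM:2676-2750, plus): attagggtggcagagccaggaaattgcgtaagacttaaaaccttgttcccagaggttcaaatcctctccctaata

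All 22 tRNAs together had 472 reads in the 4 inputs, 0 reads in the 2 RIP EV libraries and 18 reads in the 2 RIP Eif4a2flag libraries. In RIP EV a summed level of at most 0.557 CPM is allowed by 3 counts in both libraries together, and the tRNAs were at least 49.6-fold lower there than in input EV, where they stood at 27.6 CPM over both libraries. In RIP Eif4a2flag they were 19.9-fold lower than in input Eif4a2flag (95% exact counting interval 12.2 to 34.3). For the plus-strand mRNAs the ratio of the mean of input EV to that of RIP EV was 3.87, or 5.42 without replicate 1 and 2.33 without replicate 2 of input EV. Against the same 0.557 CPM, the tRNAs were at least 1.53-fold higher in RIP Eif4a2flag, where 12 and 6 reads gave 0.850 CPM over both libraries. This bound was lost with either RIP EV library left out, since 3 counts allow 1.47 CPM in replicate 1 and 0.897 CPM in replicate 2 alone. The 49.6-fold bound, too, is smaller against these limits of single libraries.

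Of the single tRNAs, *mt-Tm* had 57 and 33 counts in input EV, 22 and 26 in input Eif4a2flag, 0 and 0 in RIP EV, and 3 and 0 in RIP Eif4a2flag. *mt-Tt*, which lies just downstream of *mt-Cytb*, had 44 and 25, 9 and 3, 0 and 0, and 0 and 3 counts. *mt-Tp* had 27 and 23, 24 and 12, 0 and 0, and 1 and 0 counts. For these 3 tRNAs no RIP EV library held a read. *mt-Tq* had 19 and 20, 12 and 20, 0 and 0, and 6 and 0 counts, and *mt-Tl1*, which lies between *mt-Rnr2* and *mt-Nd1*, had 1 and 18, 20 and 17, 0 and 0, and 0 and 0 counts. Between input EV and RIP EV the level was lower by at least 15.4-fold for *mt-Tm*, 11.8-fold for *mt-Tt*, 8.58-fold for *mt-Tp*, 6.69-fold for *mt-Tq* and 3.26-fold for *mt-Tl1*, each against 3 counts over both libraries. *mt-Tq*, *mt-Tm* and *mt-Tp*, which passed the filter, were called lower in this comparison, as were 26.3% of all genes, by the quasi-likelihood test of edgeR after Benjamini-Hochberg adjustment (adjusted p = 0.0411, 0.0114 and 0.0154). These calls were lost with edgeR on the 4 libraries compared. The filter asks for a level in the inputs and not in the RIPs, so the choice of tRNAs tested favours calls in this direction.

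Between input Eif4a2flag and RIP Eif4a2flag the ratio was 31.2 for *mt-Tm* (95% exact counting interval 10.1 to 157), 70.3 for *mt-Tp* (11.8 to 2853), 10.4 for *mt-Tq* (4.30 to 30.5) and 7.81 for *mt-Tt* (2.11 to 43.1), and *mt-Tl1* was at least 24.1-fold lower. Each of these ratios rests on reads in a single RIP Eif4a2flag library, and that of *mt-Tp* on 1 read. None of the 3 tested tRNAs was called here by edgeR's quasi-likelihood test (adjusted p = 0.419 for *mt-Tq*, 0.202 for *mt-Tm* and 0.170 for *mt-Tp*), and each was lower at an unadjusted p under 0.05. Against RIP EV both groups lay under the level of 3 counts over both RIP EV libraries for each of these 5 tRNAs, so no fold is given. The other 8 tRNAs with reads reached at most 6 counts in any library.

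The proteins made from mitochondrial mRNAs work in complexes with nuclear-encoded partners, whose mRNAs are capped and translated in the cytosol. Of 85 nuclear-encoded subunits of the respiratory chain and ATP synthase, 77 were tested. In RIP Eif4a2flag against input, 0 of the 77 were called in either direction by edgeR's quasi-likelihood test (3 were lower and 0 higher at an unadjusted p under 0.05, and DESeq2 called 1 higher and 2 lower), with a median log2 fold change of -0.08. Of all genes, edgeR called 0% higher and 0.0558% lower in this comparison, an unadjusted p under 0.05 was reached by 3.08% upward and by 5.88% downward, and DESeq2 called 2.55% higher and 4% lower. Against RIP EV, 35 of the 77 were called higher and 0 lower, where 24.8% of all genes were called higher, with a median of 1.53 beside 0.64 over all genes. In RIP EV against its input, 36 of the 77 were called lower and 0 higher, where 26.3% of all genes were called lower, with a median of -1.91 beside -0.64 over all genes. By the interaction term, 18 of the 77 were called higher and 0 lower, a share near the 19.2% of all genes called higher. Of the mitochondrially encoded mRNAs, 7 of 7 tested were called lower against RIP EV, beside 5.46% of all genes.

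*Uqcrc1*, a core subunit of complex III, had 501 and 150 counts in input EV, 259 and 465 in input Eif4a2flag, 0 and 1 in RIP EV, and 1421 and 874 in RIP Eif4a2flag, 584-fold higher in RIP Eif4a2flag than in RIP EV (95% exact counting interval 105 to 23075). *Ndufb4*, a subunit of complex I, had 0 and 1 counts in RIP EV and 719 and 518 in RIP Eif4a2flag. *Cox6b2*, a subunit of cytochrome c oxidase, had 0 and 1 counts in RIP EV and 525 and 434 in RIP Eif4a2flag. These genes were named for the size of their change, so their direction says nothing of the rest of the list. *Cox7c*, of cytochrome c oxidase, fell from 133 and 94 counts in input EV to 1 and 0 in RIP EV, and *Ndufs7*, of complex I, had 0 and 8 counts in RIP EV beside 2370 and 1988 in RIP Eif4a2flag.

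Of 67 nuclear genes listed for mitochondrial transcription, RNA processing and translation, 65 were in the table and 60 were tested. Against input, 0 of them were called in RIP Eif4a2flag by edgeR's quasi-likelihood test in either direction, 0 at an unadjusted p under 0.05 and 0 by DESeq2, with a median log2 fold change of -0.08. For all genes these shares were 0% higher and 0.0558% lower, 3.08% and 5.88%, and 2.55% and 4%. Against RIP EV, 12 of the 60 were called higher and 1 lower, where 24.8% of all genes were called higher and 5.46% lower, with a median of 0.09 beside 0.64 over all genes. In RIP EV against its input 11 of the 60 were called lower and 0 higher, where 26.3% of all genes were called lower. By the interaction term, 8 of the 60 were called higher and 0 lower, where 19.2% of all genes were called higher. Whether these shares differ from those of all genes was not tested, and the 3 comparisons share the RIP EV libraries. DESeq2 called 7 of the 60 lower against RIP EV (10.5% of all genes) and 4 higher in RIP EV against its input (10%). By the interaction term it called 13 higher (24.5%) and 1 lower (5.65%). The gene that edgeR called lower against RIP EV was *Tbrg4*, of the FASTK family that acts on mitochondrial RNA. It had 523 and 947 CPM in the RIP EV libraries against 281 and 264 CPM in RIP Eif4a2flag (log2 fold change -1.70, standard error 0.383, adjusted p = 0.0162, edgeR with Benjamini-Hochberg adjustment).

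Among those called higher, *Top1mt*, the mitochondrial topoisomerase, was at 0 in each RIP EV library and had 172 and 228 in RIP Eif4a2flag, at least 33.9-fold higher. *Tfb1m*, which methylates the small subunit rRNA, had 0 and 0 against 63 and 100 counts, at least 13.8-fold higher, and *Trmt5*, a tRNA methyltransferase, had 0 and 0 against 83 and 77 counts, at least 13.6-fold higher. *Mtrf1*, of the mitochondrial release factor family, had 86 and 35 counts in input EV and 0 in each RIP EV library, at least 20.8-fold lower. These 4 genes, too, were named for the size of their change.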

How the data were processed

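RNA from inputs and anti-Flag RIPs was analysed in 8 libraries. Per the labels, the authors mapped QuantSeq reads to mm10 with STAR (version 2.5.3a) and counted them with HTSeq (version 0.11.2). According to the methods, reads were trimmed before mapping. The deposited values are raw counts per gene, whole numbers without normalization, with 5 summary lines that were kept apart from totals and tests. Reads aligned to more than 1 place made up 27.0% to 52.1% of reads. For the annotation release and the strand setting, no source used here gives a value. Names and positions came from GENCODE for GRCm38, which matched 52403 gene identifiers, and sequences from RefSeq for GRCm38.

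Genes were tested where each of the 4 inputs reached 1 CPM (10754 genes), and the counts of all 8 libraries were fitted with edgeR (version 4.0.16, R version 4.3.3), TMM factors and quasi-likelihood tests, after a test on simulated data. Benjamini-Hochberg adjustment ran over all genes tested, at a threshold of 0.05. Shares were given with Wilson intervals, and ratios of pooled counts with exact binomial intervals. Reads carry no molecular identifiers, so intervals and limits from 3 counts cover counting error only. Nuclear copies were searched as exact 50-base windows on both strands. Gene totals per library lay between 2044853 and 11206420 reads.

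Named were all mitochondrial mRNAs and rRNAs, tRNAs with at least 10 counts in a library, and, of each nuclear list, the 3 largest rises and 3 largest falls among genes past the threshold in a comparison. The members, the lists and the tests were chosen with earlier results of these data known. Alternatives were other scalings, no filter or filterByExpr, DESeq2 (version 1.42.0), thinned counts, the replicate number as a block, fits of the 4 libraries compared, leaving out each library, and other denominators of the shares. Same-numbered libraries of different groups deviated together only weakly (correlations between -0.07 and 0.13 over genes). Per a supplemental figure legend of the study, 2 clones of the tagged line served as replicates. No source used here ties the numbers to clones, so the numbers were not taken as pairs.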

Additional observations from a re-analysis of the deposited data

Results flagged for a closer look

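The change from input to RIP differed between the Eif4a2flag and the EV cells by the interaction term of edgeR's fit for all 7 tested mRNAs and both rRNAs, beside 2.1% of all genes that passed in this direction and 19.2% in the other. All 9 calls were lost with thinned counts and without any of 5 single libraries (replicate 1 of input EV, either input Eif4a2flag library or either RIP Eif4a2flag library). On the log2 scale the difference, Eif4a2flag minus EV, was -5.51 for *mt-Rnr1*, -6.45 for *mt-Rnr2* and -5.61 for *mt-Nd1*. It was -3.70 for *mt-Nd2*, -5.23 for *mt-Co1* and -4.70 for *mt-Nd4*. For *mt-Nd5*, *mt-Nd6* and *mt-Cytb* it was -5.44, -6.17 and -4.89. In *mt-Nd6* the 2 changes point in opposite directions, with a log2 fold change of -2.28 in the Eif4a2flag cells and 3.89 in the EV cells, of which the latter passed the threshold. That call was lost with the replicate number as a block and with edgeR on the 4 libraries compared. The groups have 2 libraries each, so no single library was tested as an outlier.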

How the results depend on the processing

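The 12 tested genes kept a log2 fold change below 0 in RIP Eif4a2flag against its input, and the 9 mRNAs and rRNAs against RIP EV, under every alternative run. Counts of calls moved more. In RIP Eif4a2flag against input the 4 genes called lower became 9 with no filter, 10 with DESeq2 on 8 libraries, 12 with edgeR or DESeq2 on the 4 libraries, and between 0 and 12 with each library left out. Against RIP EV the 9 became 0 with edgeR on 4 libraries, where 9 were lower at an unadjusted p under 0.05, and 9 with DESeq2. In RIP EV against input the 6 called lower became 10 of 23 tested with no filter, 0 with edgeR on 4 libraries (7 at an unadjusted p under 0.05, and 4 with DESeq2), and between 2 and 9 with each library left out, and the 1 called higher became 0 with edgeR on 4 libraries and 0 to 1 with each library left out. The 9 of the interaction term became 0 with thinned counts (9 at an unadjusted p under 0.05) and 0 to 9 with each library left out. The cause was not tested.

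With the replicate block, the 4 became 2 and the *mt-Nd6* call in RIP EV against input was lost (1 became 0), and the other counts of mitochondrial genes stayed within 1.5 times. With each library left out, the log2 fold change of *mt-Nd5* in RIP EV against input lay between -0.014 and 0.99 (below 0 without replicate 1 of input EV). Between the inputs that of *mt-Tq* lay between -1.01 and 0.091 (above 0 without replicate 2 of input EV) and that of *mt-Tp* between -1.46 and 0.0074 (above 0 without replicate 2 of input Eif4a2flag).

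With DESeq2, the nuclear factors called lower against RIP EV became 7 of 60 (10.5% of all genes), those called higher in RIP EV against input 4 (10%), and those of the interaction term 13 higher (24.5%) and 1 lower (5.65%). Respiratory chain genes became 1 of 77 higher (2.55%) and 2 lower (4%) in RIP Eif4a2flag against input and 2 higher in RIP EV against input (10%). The mean mitochondrial share of all reads, in place of gene reads, was 0.593% in input EV, 0.357% in input Eif4a2flag and 0.175% in RIP EV, and of uniquely mapped reads 0.652% in input Eif4a2flag and 0.277% in RIP EV. Without members copied in the nuclear genome, rRNAs took 14.6% of mitochondrial reads in RIP Eif4a2flag. Shares in RIP Eif4a2flag rest on 732 and 1225 mitochondrial reads. Of 1210 alternative values compared, 986 kept their direction and call or moved little, 3 single genes changed sign, 125 lost and 54 gained a call, and 42 counts or shares moved.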

Other observations

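Within the plus strand, the reads on *mt-Cytb* relative to *mt-Nd5* stood at 19.4 and 18.0 in input EV and 16.3 and 22.1 in input Eif4a2flag, at 2.40 and 1.87 in RIP EV, and at 4.23 and 2.71 in RIP Eif4a2flag, so that all 4 RIP libraries were below all 4 inputs. The reads on *mt-Nd4* relative to *mt-Cytb* stood at 1.30 to 1.89 in the inputs, at 2.23 and 2.06 in RIP EV, above every input, and at 1.45 and 2.54 in RIP Eif4a2flag, of which the first lies within the range of the inputs.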
